A study of Mus musculus with 10 samples.

Results

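Interferon-stimulated genes are the genes that cells switch on when interferon binds its receptors. A list of 37 of them was followed through 10 mouse livers, each measured on 1 whole-transcript microarray. A gene entered the analysis when the platform's annotation gave it a probe set (a group of probes read as 1 value) that carried no other gene's symbol, and of several such probe sets the brightest on average was kept. This held for 33 of the 37 genes, out of 19935 genes measured that way. Isg15, Gbp2 and Igtp were read only by probe sets shared with another gene, and Ifi44 is not named in the platform table used here, so these 4 have no value below. The study compared the livers of 5 wild-type mice (WT) and 5 mice lacking nucleomethylin (NML-KO), all 12 weeks old, with no treatment. Nucleomethylin, the product of Rrp8, sits in the nucleolus and helps to keep ribosomal RNA genes silent. The labels give neither sex, strain, litter, time of dissection nor the design of the deleted allele. Every array is a liver of its own by its title, and p-values measure the spread between these livers. All values are log2 of the deposited intensity, and all differences are on that scale.

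Interferons act by a relay. Type I and type III interferons bind receptors whose kinases activate a complex that includes Stat2 and Irf9 and binds the interferon-stimulated response element, whereas interferon gamma works mainly through gamma-activated sites and through Irf1. The products of the induced genes sense viral nucleic acid, block viral entry, translation and budding, or cut and load peptides for presentation to T cells. In the liver both hepatocytes and resident macrophages (Kupffer cells) respond to interferon, and many of these genes have a basal level without infection.

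The livers also fell into 2 classes by Dbp, a transcription factor gene driven by the circadian clock, and the genes were compared within and across these classes. Dbp was above a log2 value of 8 in WT 1, WT 2 and NML-KO 1 to NML-KO 3 (9.68 to 10.23) and below it in WT 3 to WT 5, NML-KO 4 and NML-KO 5 (6.20 to 6.60). The classes were set from the measured Dbp value and are no label of the study, so anything else that set the 5 Dbp-high livers apart from the 5 Dbp-low livers cannot be told apart from Dbp. Median intensities per array lay between 62.5 and 66.7. The number of arrays, 10 in all, limits how precise these values are. Rrp8 read 6.65 to 7.19 in NML-KO and 7.65 to 7.90 in WT livers. The 7 hepatocyte markers measured, Alb and Apoa1 among them, had means of at least 13.7.

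Where a promoter holds the response element, the gene can be bound by that complex directly, so the 250 bases upstream of the start of each gene were searched. The RefSeq promoter table (build GRCm38.p6) held 29 of the 37 genes. The response element core, GAAA followed by any 2 bases and GAAA again, searched on both strands, was in the upstream bases of 12 of these 29 (41.4%), against 936 of 27025 genes of the table (3.46%). The longer core, the same letters followed by a C, of which every match is also a match of the shorter one, was in 9 of 29 (31.0%) against 0.796% of all genes. The gamma-activated site core TTCNNNGAA was in 7 of 29 (24.1%) against 8.13%, and the TATA box TATAAA in 6 of 29 (20.7%) against 14.3%. All 4 GTPase genes of the list (Gbp2, Gbp3, Igtp and Irgm1) held the response element core, as did 2 of 3 Ifit genes, whereas none of the 4 immunoproteasome and Tap genes and none of the 3 cytosolic sensor genes in the table did. A match describes these letters in this window only. The windows below were chosen because 5 of these genes were among those lower in Dbp-high livers (Ifit1, Ifit3, Rsad2, Bst2 and Stat2), and 2 are GTPase genes that hold the same core and did not pass the threshold there (Irgm1 and Gbp3). Each is written 5′ to 3′ on the gene's strand, with the core, in either orientation, in capitals.
Ifit1, chr19:34640770-34640828, plus strand: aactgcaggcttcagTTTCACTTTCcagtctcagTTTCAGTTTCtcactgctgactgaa
Ifit3, chr19:34583358-34583431, plus strand: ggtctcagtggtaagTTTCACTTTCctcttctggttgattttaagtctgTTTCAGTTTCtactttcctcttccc
Rsad2, chr12:26456548-26456587, minus strand: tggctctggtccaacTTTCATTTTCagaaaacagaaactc
Bst2, chr8:71537572-71537617, minus strand: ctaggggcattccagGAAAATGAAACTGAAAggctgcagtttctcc
Stat2, chr10:128270261-128270300, plus strand: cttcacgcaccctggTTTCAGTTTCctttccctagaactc
Irgm1, chr11:48871421-48871465, minus strand: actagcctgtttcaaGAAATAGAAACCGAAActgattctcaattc
Gbp3, chr3:142559984-142560029, plus strand: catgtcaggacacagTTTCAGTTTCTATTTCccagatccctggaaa
Ifit1 and Ifit3 each carry separate copies of the core, while in Bst2, Irgm1 and Gbp3 the copies overlap in 1 run. Rsad2 and Stat2 carry a single copy.

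Most interferon-stimulated genes read lower in the Dbp-high livers than in the Dbp-low livers. With genotype in the model, 30 of the 33 genes had a difference (Dbp-high minus Dbp-low) below 0, against 42.5% of all genes, and the median difference was -0.37, against 0.024 over all genes. By limma with Benjamini-Hochberg adjustment over all 19935 genes, 11 of the 33 fell past an adjusted p of 0.05 and none rose, where 7.99% of all genes fell past it, 4.92% rose past it and 12.9% moved past it in either direction. Brighter genes as a whole leaned lower too. With genes below the median brightness of 6.22 left out, 25 of 28 genes of the list were below 0, against 55.9% of all genes kept. The medians were then -0.39 and -0.037, and 13 of the 28 were called, where 17.3% of the genes kept fell past the threshold. The 11 were Ifitm3, Irf7, Rsad2, Ifit1, Stat2, Ifit3, Dhx58, Ifi35, Bst2, Eif2ak2 and Ifih1. In 9 genes every Dbp-high liver lay below every Dbp-low liver, which 7.12% of all genes did: Ddx58, Dhx58, Eif2ak2, Irf7, Stat2, Ifit1, Ifitm3, Rsad2 and Ifi35. Of the 10 genes called lower that were in the promoter table, 5 held the response element core, and of the 15 others measured and in the table, 4 did (Oas1a, Oas3, Gbp3 and Irgm1).

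With fewer arrays some calls held and others did not. Ifitm3, Dhx58, Ifit1, Rsad2, Ifi35, Eif2ak2 and Irf7 stayed below an adjusted p of 0.05 with any 1 of the 10 arrays left out. The other 4 calls were lost in many of these fits. Ifit3 kept its call in 1 of the 10 fits (without NML-KO 1). Bst2 kept it in 2 of the 10 fits (without WT 1 or WT 3) and Ifih1 in 2 (without NML-KO 1 or NML-KO 5). Stat2 lost it in 5 of them (without WT 2, WT 4, NML-KO 2, NML-KO 4 or NML-KO 5). The differences themselves ran from -0.68 to -0.47 for Ifit3, -0.57 to -0.32 for Bst2, -0.48 to -0.32 for Ifih1 and -0.69 to -0.45 for Stat2. Conversely, Ddx58 passed the threshold without NML-KO 3, Oasl1 without NML-KO 3 or NML-KO 4 and Mx2 without WT 2. Between 7 and 10 of the 33 genes were called with 1 array left out, the fewest without WT 4 or without NML-KO 2. In those fits 5.29% to 8.1% of all genes fell past the threshold. Without NML-KO 4 the median difference was -0.23. Without NML-KO 2 and NML-KO 4 together it was -0.19, with 8 genes called, where 6.62% of all genes fell past the threshold.

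**Figure D1:**
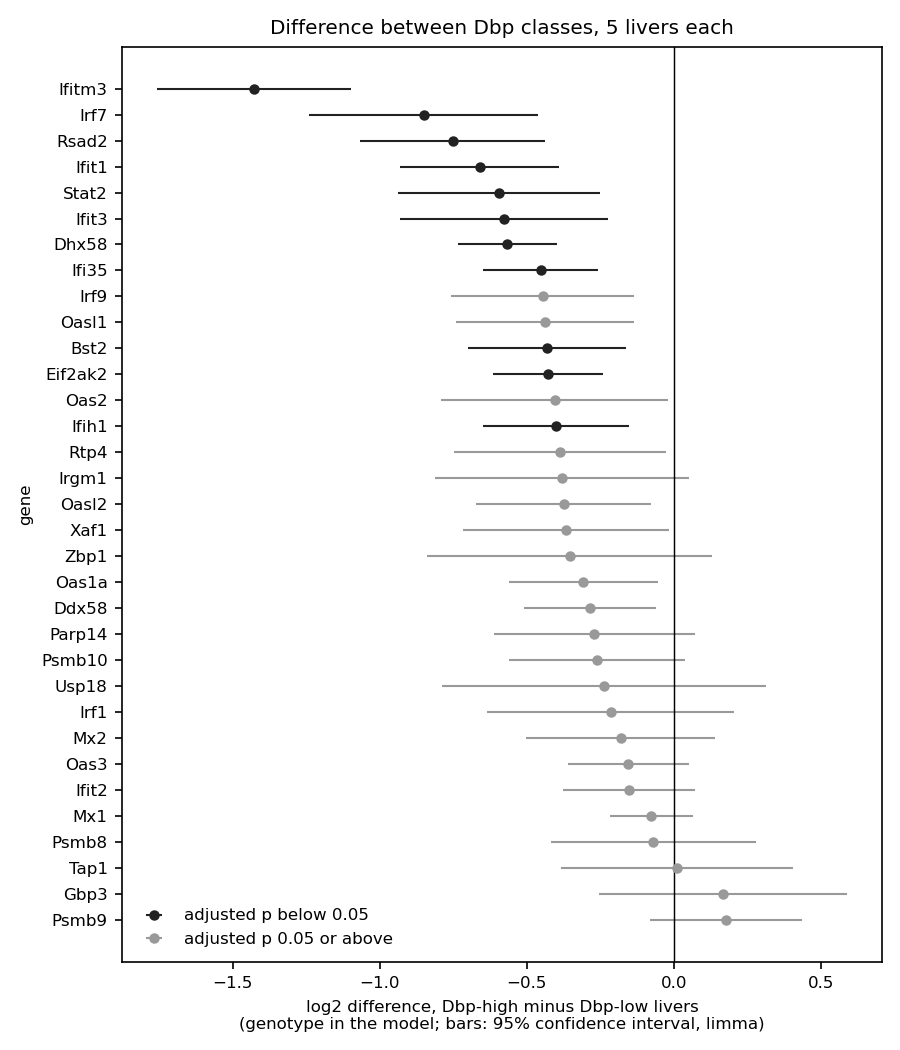
Log2 difference between Dbp-high and Dbp-low livers for the 33 interferon-stimulated genes (x axis; points, limma estimate with genotype in the model; bars, 95% confidence interval), ordered by size. Ifitm3 lies furthest to the left at -1.43, the 11 genes with an adjusted p below 0.05 are dark, and Psmb9, Gbp3 and Tap1 lie at or right of 0.

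**Figure D2:**
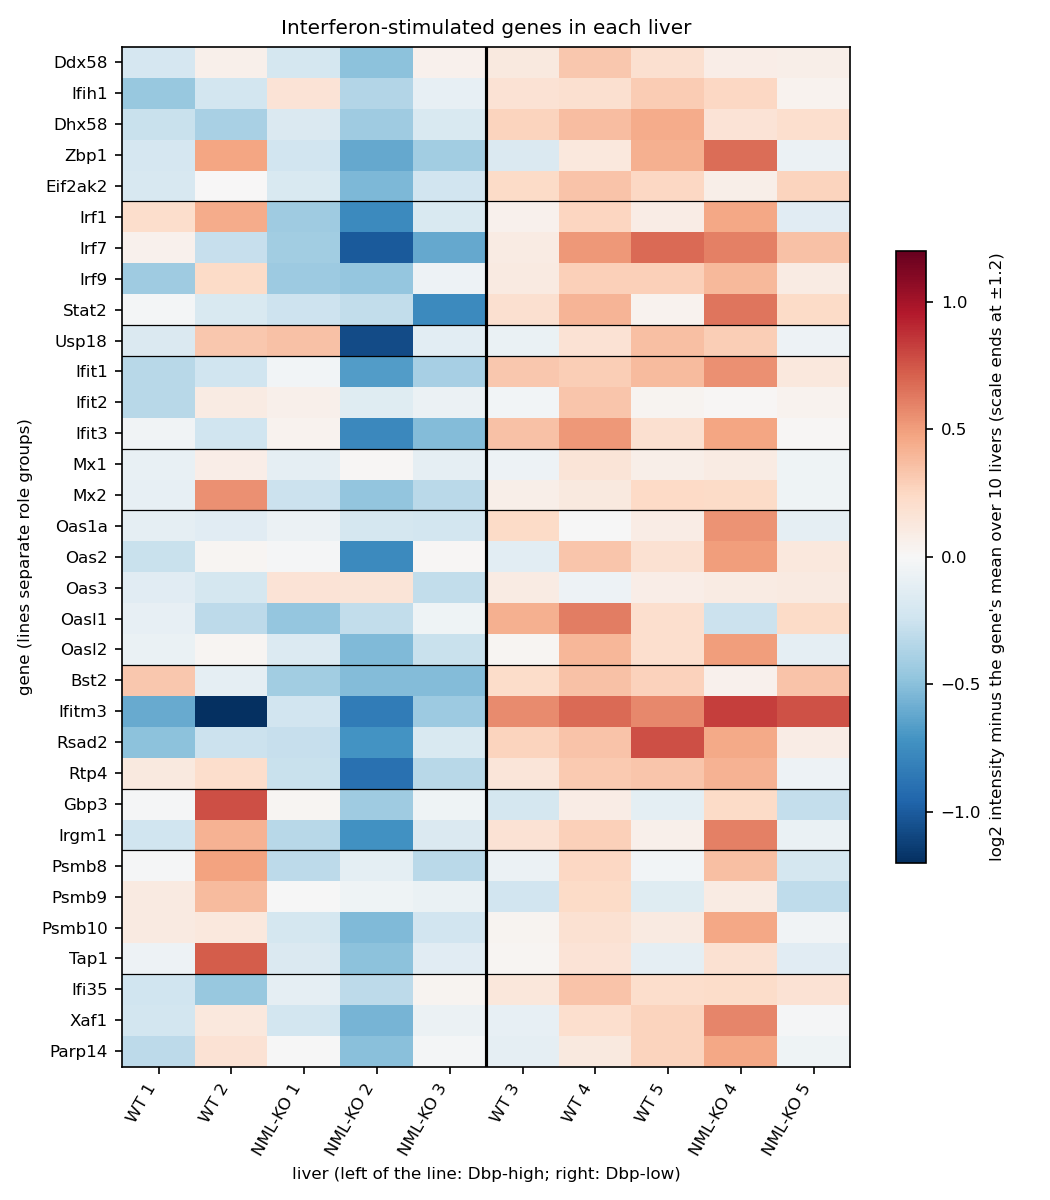
Each gene's log2 intensity minus its mean over the 10 livers, by liver (columns, Dbp-high left of the line) and by gene (rows, grouped by role). NML-KO 2 is the bluest column, with the lowest value of the 10 livers for 21 of the 33 genes, and NML-KO 4 holds the highest value for 14.

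The cytosolic sensors detect foreign or misplaced nucleic acid. All 5 were below 0 between the classes, as 42.5% of all genes were, and 3 of them fell past the threshold, as 7.99% of all genes did. Dhx58, which encodes the helicase LGP2, a regulator of RNA sensing, read 6.94 and 6.83 in WT 1 and WT 2, 7.03, 6.78 and 7.02 in NML-KO 1 to NML-KO 3, 7.48, 7.58 and 7.66 in WT 3 to WT 5, and 7.37 and 7.42 in NML-KO 4 and NML-KO 5. All Dbp-high livers lay below 7.1 and all Dbp-low livers above 7.3, so the classes did not overlap in either genotype. The difference was -0.57 (SE 0.08), a 1.48-fold lower signal (limma adjusted p = 0.00129). Eif2ak2, which encodes PKR, a kinase that stops translation when it binds double-stranded RNA, read 6.73 and 6.93 in WT 1 and WT 2, 6.74, 6.39 and 6.69 in NML-KO 1 to NML-KO 3, 7.15, 7.27 and 7.17 in WT 3 to WT 5, and 6.99 and 7.19 in NML-KO 4 and NML-KO 5. It was lowest in NML-KO 2 and differed by -0.43 (SE 0.08) between the classes (limma adjusted p = 0.00909), again without overlap. Ddx58, the gene of the RNA sensor RIG-I, read 8.54 and 8.80 in WT 1 and WT 2, 8.53, 8.25 and 8.79 in NML-KO 1 to NML-KO 3, 8.86, 9.07 and 8.94 in WT 3 to WT 5, and 8.82 and 8.81 in NML-KO 4 and NML-KO 5. Its classes did not overlap, with the highest Dbp-high and lowest Dbp-low livers close together at 8.80 and 8.81, and its difference of -0.29 (SE 0.10) missed the threshold (limma adjusted p = 0.0974). Ifih1, the gene of the RNA sensor MDA5, was past the threshold at -0.40 (SE 0.11) (limma adjusted p = 0.0427), and Zbp1, whose product binds Z-form nucleic acid, was not at -0.35 (SE 0.22).

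Among the transcription factors that carry the interferon signal, Irf7 and Stat2 fell between the classes, whereas Irf9 and Irf1 did not pass the threshold. Irf7, which amplifies type I interferon production and is itself interferon-induced, read 7.75 and 7.43 in WT 1 and WT 2, 7.29, 6.69 and 7.09 in NML-KO 1 to NML-KO 3, 7.80, 8.22 and 8.38 in WT 3 to WT 5, and 8.31 and 8.05 in NML-KO 4 and NML-KO 5. NML-KO 2 was the lowest liver and WT 5 the highest, and within each genotype the Dbp-high livers were the lower ones. Its difference was -0.85 (SE 0.17), 1.80-fold lower (limma adjusted p = 0.0111). Stat2, which joins Irf9 in the interferon-activated complex, was 8.37 ± 0.28 in Dbp-high and 8.98 ± 0.23 in Dbp-low livers (SD, n = 5 each), with NML-KO 3 lowest at 7.91 and NML-KO 4 highest at 9.32. The difference was -0.59 (SE 0.15) (limma adjusted p = 0.032). Irf9, the DNA-binding part of that complex, differed by -0.45 (SE 0.14) with a limma adjusted p of 0.0643. Irf1, which is induced mainly by interferon gamma, followed another order and read 7.96 and 8.19 in WT 1 and WT 2, 7.32, 6.98 and 7.56 in NML-KO 1 to NML-KO 3, 7.80, 8.003 and 7.83 in WT 3 to WT 5, and 8.21 and 7.61 in NML-KO 4 and NML-KO 5. It was high in both WT livers of the Dbp-high class and lowest in the NML-KO livers of that class, so the classes overlapped and the difference was -0.21 (SE 0.19) (limma adjusted p = 0.508).

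Of the ISG15 system, which couples the ubiquitin-like protein Isg15 to other proteins, Usp18 alone could be read, the gene of the protease that removes Isg15 and damps receptor signalling. Usp18 read 7.70 and 8.19 in WT 1 and WT 2, 8.22, 6.80 and 7.74 in NML-KO 1 to NML-KO 3, 7.79, 8.04 and 8.23 in WT 3 to WT 5, and 8.16 and 7.81 in NML-KO 4 and NML-KO 5. NML-KO 2 stood below every other liver, the next lowest being WT 1, and the remaining livers of both classes overlapped. Its class difference of -0.24 (SE 0.25) was not past the threshold (limma adjusted p = 0.584) and was 0.01 without NML-KO 2 and NML-KO 4.

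The Ifit proteins bind viral RNA that lacks the host's cap marks. Ifit1 and Ifit3 fell between the classes and Ifit2 did not pass the threshold. Ifit1 read 6.61 and 6.70 in WT 1 and WT 2, 6.91, 6.27 and 6.54 in NML-KO 1 to NML-KO 3, 7.27, 7.23 and 7.32 in WT 3 to WT 5, and 7.48 and 7.06 in NML-KO 4 and NML-KO 5. Dbp-low livers were all above 7.0 and Dbp-high livers all below it, a difference of -0.66 (SE 0.12) or 1.58-fold (limma adjusted p = 0.00664). Ifit3 read 7.48 and 7.28 in WT 1 and WT 2, 7.57, 6.75 and 6.998 in NML-KO 1 to NML-KO 3, 7.87, 8.04 and 7.71 in WT 3 to WT 5, and 7.996 and 7.53 in NML-KO 4 and NML-KO 5. NML-KO 1 and NML-KO 5 overlapped at 7.57 and 7.53, and the difference was -0.58 (SE 0.16) (limma adjusted p = 0.0398). Ifit2, a dim gene with values of 5.32 to 5.98, differed by -0.15 (SE 0.10). All 3 genes lie on chromosome 19. Ifit1 and Ifit3 hold the response element core in the upstream bases searched and Ifit2 does not. Whether the core goes with the class difference was not tested.

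The Mx proteins are GTPases that trap viral particles, and both Mx genes were dim. Mx1 read 4.94 and 5.11 in WT 1 and WT 2, 4.92, 5.04 and 4.93 in NML-KO 1 to NML-KO 3, 4.97, 5.19 and 5.10 in WT 3 to WT 5, and 5.13 and 4.98 in NML-KO 4 and NML-KO 5. All livers lay close together, with a class difference of -0.08 (SE 0.06). Mx2 read 5.53 and 6.16 in WT 1 and WT 2, 5.36, 5.15 and 5.30 in NML-KO 1 to NML-KO 3, 5.69, 5.74 and 5.86 in WT 3 to WT 5, and 5.85 and 5.57 in NML-KO 4 and NML-KO 5. WT 2 was the highest liver and the 3 NML-KO livers of the Dbp-high class were the lowest. The class difference of Mx2 was -0.18 (SE 0.14) (limma adjusted p = 0.46), and without WT 2 it was -0.36 with an adjusted p of 0.0285, while without NML-KO 4 it was -0.07 with an adjusted p of 0.827.

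The Oas enzymes make 2′-5′ oligoadenylates that activate RNase L. All 5 family members were below 0 between the classes, from -0.44 to -0.16, as 42.5% of all genes were. By limma, 4 had an unadjusted p below 0.05 (14.4% of all genes were lower by that rule) and none an adjusted one. Oasl1, an Oas-like protein gene without that enzyme activity that restrains Irf7 translation, read 7.43 and 7.21 in WT 1 and WT 2, 7.06, 7.23 and 7.48 in NML-KO 1 to NML-KO 3, 7.96, 8.14 and 7.73 in WT 3 to WT 5, and 7.27 and 7.76 in NML-KO 4 and NML-KO 5. NML-KO 4 grouped with the Dbp-high livers here, although it held the highest value of the 10 livers for 14 other genes of the list. The difference was -0.44 (SE 0.14) (limma adjusted p = 0.0639). Oasl2, its neighbour on chromosome 5, read 6.95 and 7.05 in WT 1 and WT 2, 6.86, 6.49 and 6.76 in NML-KO 1 to NML-KO 3, 7.05, 7.42 and 7.23 in WT 3 to WT 5, and 7.53 and 6.92 in NML-KO 4 and NML-KO 5. It differed by -0.37 (SE 0.13) (limma adjusted p = 0.101), with NML-KO 2 lowest and NML-KO 4 highest. Oas1a, Oas2 and Oas3 differed by -0.31, -0.41 and -0.16.

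The membrane and endoplasmic reticulum restriction factors held the largest difference of the list, that of Ifitm3. Ifitm3, whose product blocks fusion of viruses with endosomal membranes, read 11.36 and 10.67 in WT 1 and WT 2, 11.73, 11.13 and 11.53 in NML-KO 1 to NML-KO 3, 12.53, 12.64 and 12.54 in WT 3 to WT 5, and 12.80 and 12.73 in NML-KO 4 and NML-KO 5. Every Dbp-low liver lay at 12.53 or above and every Dbp-high liver at 11.73 or below, with WT 2 the lowest. The difference was -1.43 (SE 0.15), with a 95% confidence interval of -1.76 to -1.10, or a 2.69-fold lower signal in Dbp-high livers (limma adjusted p = 0.000353). Rsad2, the gene of viperin, which makes a chain-terminating nucleotide, read 6.58 and 6.82 in WT 1 and WT 2, 6.79, 6.35 and 6.89 in NML-KO 1 to NML-KO 3, 7.35, 7.41 and 7.85 in WT 3 to WT 5, and 7.53 and 7.16 in NML-KO 4 and NML-KO 5. Its classes did not overlap, and the difference was -0.75 (SE 0.14) or 1.68-fold (limma adjusted p = 0.00743). Bst2, the gene of tetherin, which holds budding virus at the cell surface, read 8.45 and 8.01 in WT 1 and WT 2, 7.70, 7.61 and 7.60 in NML-KO 1 to NML-KO 3, 8.34, 8.48 and 8.40 in WT 3 to WT 5, and 8.18 and 8.46 in NML-KO 4 and NML-KO 5. WT 1 matched the Dbp-low livers and the 3 NML-KO livers of the Dbp-high class stood apart below all others. The class difference was -0.43 (SE 0.12) (limma adjusted p = 0.0431). Rtp4, the gene of receptor transporter protein 4, read 7.29 and 7.38 in WT 1 and WT 2, 6.90, 6.28 and 6.84 in NML-KO 1 to NML-KO 3, 7.32, 7.48 and 7.51 in WT 3 to WT 5, and 7.59 and 7.11 in NML-KO 4 and NML-KO 5. It was lowest in NML-KO 2 and differed by -0.39 (SE 0.16) between the classes (limma adjusted p = 0.155).

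Neither of the 2 GTPase genes measured passed the threshold between the classes. Irgm1, which acts on vacuoles that hold pathogens, read 7.66 and 8.31 in WT 1 and WT 2, 7.57, 7.17 and 7.72 in NML-KO 1 to NML-KO 3, 8.07, 8.19 and 7.96 in WT 3 to WT 5, and 8.50 and 7.82 in NML-KO 4 and NML-KO 5. Gbp3, a guanylate-binding protein gene, read 6.39 and 7.17 in WT 1 and WT 2, 6.43, 5.98 and 6.35 in NML-KO 1 to NML-KO 3, 6.19, 6.50 and 6.29 in WT 3 to WT 5, and 6.63 and 6.12 in NML-KO 4 and NML-KO 5. WT 2 was the highest liver for Gbp3, and NML-KO 2 was the lowest for both genes. Their class differences were -0.38 (SE 0.19) and 0.17 (SE 0.19) (limma adjusted p = 0.244 and 0.618).

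Of the immunoproteasome subunits Psmb8, Psmb9 and Psmb10 and the peptide transporter Tap1, none passed the threshold between the classes. Psmb8 read 7.21 and 7.71 in WT 1 and WT 2, 6.91, 7.11 and 6.90 in NML-KO 1 to NML-KO 3, 7.15, 7.48 and 7.19 in WT 3 to WT 5, and 7.58 and 7.02 in NML-KO 4 and NML-KO 5. Tap1 read 7.51 and 8.30 in WT 1 and WT 2, 7.40, 7.08 and 7.43 in NML-KO 1 to NML-KO 3, 7.60, 7.73 and 7.46 in WT 3 to WT 5, and 7.75 and 7.43 in NML-KO 4 and NML-KO 5. In both, WT 2 was the highest liver and the classes overlapped, with differences of -0.07 (SE 0.16) and 0.01 (SE 0.18) and 95% confidence intervals of -0.42 to 0.28 and -0.38 to 0.40. Psmb10 read 8.64 and 8.65 in WT 1 and WT 2, 8.31, 7.99 and 8.30 in NML-KO 1 to NML-KO 3, 8.56, 8.71 and 8.63 in WT 3 to WT 5, and 8.99 and 8.48 in NML-KO 4 and NML-KO 5. The WT livers lay between 8.56 and 8.71 whatever their class, while the NML-KO livers ran from 7.99 to 8.99, and the class difference was -0.26 (SE 0.13). Psmb9, with Gbp3 and Tap1 one of 3 genes above 0, differed by 0.18 (SE 0.12). Psmb9 and Tap1 start back to back on chromosome 17, so that their 250 upstream bases overlap (chr17:34187331-34187580 and chr17:34187306-34187555 in GRCm38.p6).

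The last 3 genes have other roles. Ifi35, a leucine zipper protein gene, read 7.44 and 7.22 in WT 1 and WT 2, 7.57, 7.36 and 7.71 in NML-KO 1 to NML-KO 3, 7.82, 8.02 and 7.89 in WT 3 to WT 5, and 7.90 and 7.85 in NML-KO 4 and NML-KO 5. Its classes were just apart, and it fell by 0.45 (SE 0.09) (limma adjusted p = 0.00861). Xaf1, a gene linked to cell death, read 6.30 and 6.65 in WT 1 and WT 2, 6.29, 5.96 and 6.45 in NML-KO 1 to NML-KO 3, 6.42, 6.72 and 6.78 in WT 3 to WT 5, and 7.10 and 6.50 in NML-KO 4 and NML-KO 5. Parp14, a mono-ADP-ribosyltransferase gene, read 7.49 and 7.98 in WT 1 and WT 2, 7.80, 7.30 and 7.78 in NML-KO 1 to NML-KO 3, 7.69, 7.92 and 8.07 in WT 3 to WT 5, and 8.27 and 7.75 in NML-KO 4 and NML-KO 5. NML-KO 2 was the lowest liver of both and NML-KO 4 the highest, and their class differences of -0.37 (SE 0.16) and -0.27 (SE 0.15) missed the threshold (limma adjusted p = 0.166 and 0.294).

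**Figure D3:**
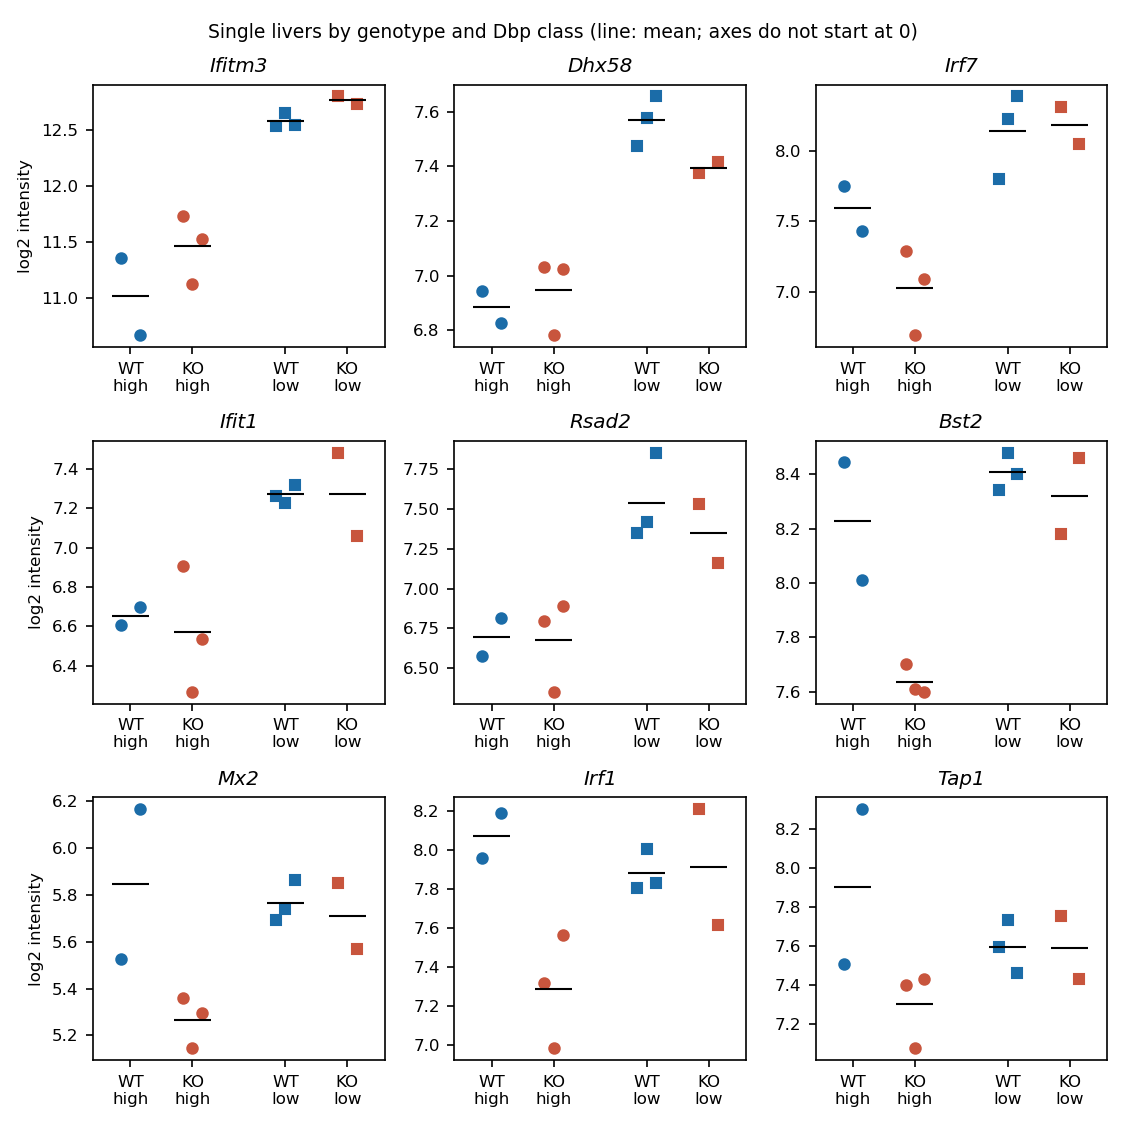
Log2 intensity (y axis, not starting at 0) of 9 genes in single livers, by genotype and Dbp class (points; lines, group means). Ifitm3, Dhx58, Irf7, Ifit1 and Rsad2 separate by class, whereas the classes overlap in Bst2, Mx2, Irf1 and Tap1. The lowest group mean is that of the NML-KO livers of the Dbp-high class in all of these genes except Ifitm3 and Dhx58.

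Exact permutations of the class labels within each genotype, over 100 assignments, gave the smallest two-sided p they can give, 0.01, for 8 genes: Dhx58, Eif2ak2, Irf7, Stat2, Ifit1, Ifitm3, Rsad2 and Ifi35. All 8 are among the genes named above whose classes did not overlap, as those of 7.12% of all genes did in that direction. These p-values therefore largely restate that separation. The permutations were not run over all genes, so the count has no background beside it. They gave 0.03 for Ddx58, 0.03 for Bst2, 0.02 for Ifih1 and 0.04 for Ifit3, and 0.95 for Tap1.

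The comparison of NML-KO with WT asks whether loss of nucleomethylin goes with a change of these genes in the liver. Over all 10 livers, 29 of 33 genes had a mean below that of WT, against 53.4% of all genes, and the median difference was -0.20, against -0.0065 over all genes. None of the 33 passed the threshold by limma with Benjamini-Hochberg adjustment, nor did any of the 19935 genes (0% called), and in no gene of the list did all 5 NML-KO livers lie on 1 side of all 5 WT livers, as 0.406% of all genes did. At an unadjusted p below 0.05, 3 of 33 were lower and none higher, where 1.66% of all genes were lower and 2.7% moved in either direction. These were Rtp4, Bst2 and Mx2.

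Rtp4 was 7.39 ± 0.10 in WT and 6.94 ± 0.47 in NML-KO livers (SD, n = 5 each). Its NML-KO livers ran from 6.28 to 7.59 and its WT livers from 7.29 to 7.51, so the genotypes overlapped. The difference was -0.45 (SE 0.19), with p = 0.042 by limma before adjustment, an adjusted p of 0.999 and p = 0.0635 by exact permutation, two-sided, over the 252 assignments of livers to genotypes. Bst2 differed by -0.43 (SE 0.17), from 8.34 ± 0.19 in WT to 7.91 ± 0.39 in NML-KO livers (SD, n = 5 each), and the exact permutation p was 0.0794. Mx2 differed by -0.35 (SE 0.15), with an exact permutation p of 0.0635. Irf1 and Irf7 had differences of -0.42 (SE 0.19) and -0.43 (SE 0.31). At the other end of the list Ifitm3 differed by 0.03 (SE 0.46), and Oas3 was the highest at 0.09 (SE 0.10). With Dbp class in the model, 26 of 33 were below 0 (55% of all genes), the median was -0.15 and again none passed the threshold (0% of all genes).

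The genotype difference moved with the livers included. The median over the 33 genes became -0.12 when NML-KO 2 was left out and -0.32 when NML-KO 4 was, the ends of the range with 1 array left out, and -0.21 with both gone. Of the 33 genes, none reached an unadjusted p below 0.05 without WT 4, WT 5, NML-KO 1 or NML-KO 2. Such a p was reached by 11 without NML-KO 4, by 5 without NML-KO 5 and by 7 without both NML-KO 2 and NML-KO 4. The share of all genes with such a p was not counted in these fits, so these counts have no background beside them. No fit with 1 array left out gave any gene of the list an adjusted p below 0.05.

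Within the Dbp-high class, with 3 NML-KO and 2 WT livers and the spread pooled over all 4 groups, 27 of 33 genes were lower in NML-KO livers (53.8% of all genes), with a median of -0.24. None passed the adjusted threshold (0% of all genes), and 8 of 33 had an unadjusted p below 0.05, all lower, as 6.43% of all genes were. In 12 genes every NML-KO liver lay below every WT liver, which 12.3% of all genes did: Irf1, Irf7, Stat2, Zbp1, Mx2, Oasl2, Bst2, Rtp4, Psmb8, Psmb9, Psmb10 and Tap1. These include 3 of the 4 transcription factors and all 4 genes of the immunoproteasome and Tap group. Irf1 had the largest difference, -0.79 (SE 0.20), followed by Rtp4 at -0.66 (SE 0.20), Tap1 at -0.60 (SE 0.22) and Bst2 at -0.59 (SE 0.13), with limma adjusted p of 0.313, 0.349, 0.414 and 0.276. Ifitm3 ran the other way at 0.45 (SE 0.21). Leaving out NML-KO 2 gave a median of -0.10, leaving out WT 2 gave -0.12 and leaving out WT 1 gave -0.34. Without WT 1 or WT 2 the class holds 1 WT liver, so only the median is given here for those fits.

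Within the Dbp-low class, with 2 NML-KO and 3 WT livers, the genes divided evenly: 17 of 33 were lower in NML-KO livers (53% of all genes) and the median was -0.0048. None passed the adjusted threshold (0% of all genes), and Oasl1 alone had an unadjusted p below 0.05, at -0.43 (SE 0.18), where 2.24% of all genes had one. Ddx58 and Dhx58 were lower in both NML-KO livers than in all 3 WT livers (10.9% of all genes) and Ifitm3 was higher (8.06% of all genes). The count turned on single livers: 29 of 33 genes were lower without NML-KO 4 and 8 of 33 without NML-KO 5.

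The difference between these genotype effects was tested itself. The effect was lower in the Dbp-high than in the Dbp-low class for 25 of 33 genes (51.4% of all genes), with a median of -0.24, and no gene passed the adjusted threshold (0% of all genes). The 3 with an unadjusted p below 0.05, where 3.84% of all genes had one in that direction, were Irf1 at -0.82 (SE 0.29), Psmb10 at -0.54 (SE 0.21) and Bst2 at -0.50 (SE 0.19), with limma adjusted p of 0.742, 0.765 and 0.749. Mx2 came next at -0.52 (SE 0.25). The median was -0.48 without NML-KO 5 and -0.09 without NML-KO 4, fits that leave a single NML-KO liver in the Dbp-low class.

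**Figure D4:**
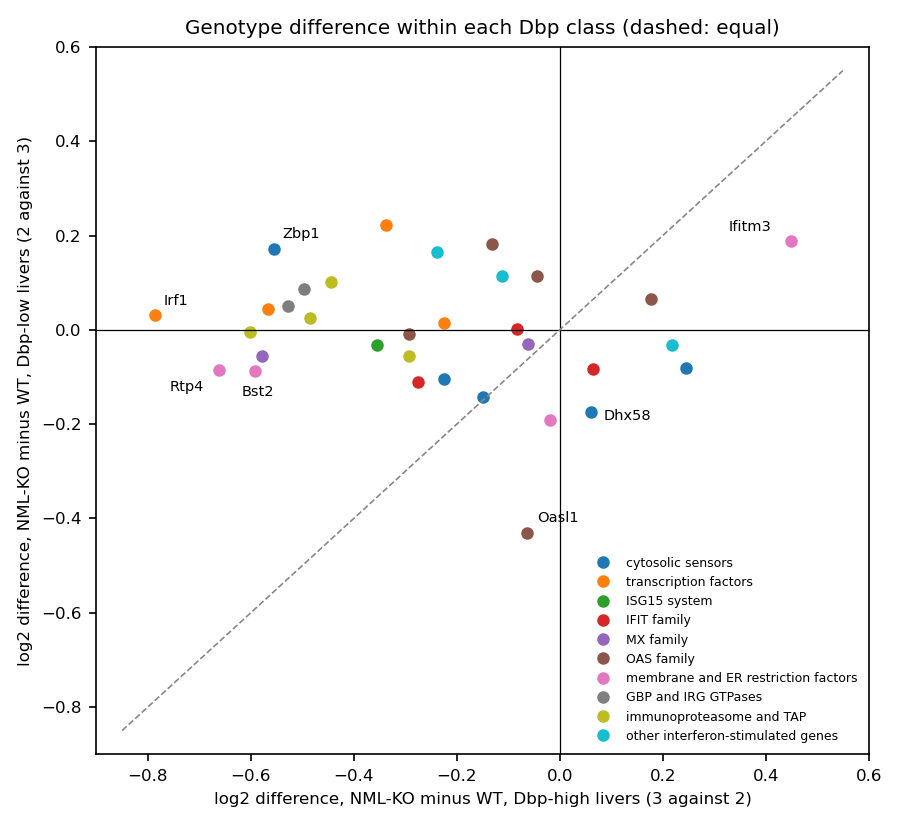
Log2 difference NML-KO minus WT of each of the 33 genes in Dbp-high livers (x axis, 3 against 2 livers) and in Dbp-low livers (y axis, 2 against 3), coloured by role. Most points spread to the left of 0 on the x axis and around 0 on the y axis, with Irf1 furthest left at -0.79 and Oasl1 lowest at -0.43.

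Single livers stood out from the rest of their group. NML-KO 2 had the lowest value of the 10 livers for 21 of 33 genes, against 15.2% of all genes, and its median deviation from each gene's own mean was -0.51. NML-KO 3 was lowest for 5 (10.7% of all genes) and NML-KO 5 for 1 (7.78%). WT 1, WT 2 and NML-KO 1 were lowest for 2 each (11.4%, 10.1% and 9.38% of all genes). NML-KO 4 was highest for 14 (9.6% of all genes), with a median deviation of 0.39 and 32 of 33 genes above their mean. WT 4 was highest for 8 (8.42% of all genes), WT 2 for 5 (12.3%), WT 5 for 5 (5.27%) and NML-KO 1 for 1 (9.39%). The count in WT 2 was near its share of all genes. The 5 genes highest in WT 2 were Mx2, Gbp3, Psmb8, Psmb9 and Tap1. In this liver the Gbp and Irg group stood 0.59 and the immunoproteasome and Tap group 0.43 above their means. The membrane and endoplasmic reticulum group stood at -0.36 there.

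Macrophage markers moved with the same livers. All 16 Kupffer cell and macrophage markers of a list that includes Clec4f, Vsig4, Timd4 and Cd5l were measured, none of them absent, with means over the livers from 5.77 (Marco) to 9.78 (Slc40a1). Their mean deviation ran from -0.57 in NML-KO 2 to 0.64 in NML-KO 4. Over the Dbp-high livers it ranged from -0.57 to 0.18, and over the Dbp-low livers from -0.07 to 0.64. Between the classes 14 of 16 markers were below 0, with a median of -0.51, and 5 fell past the threshold (Vsig4, C1qb, C1qc, Cd68 and Folr2), with differences from -1.25 (C1qb) to -0.71 (Cd68), where 42.5% of all genes were below 0 and 7.99% fell past the threshold. Between the genotypes 11 of 16 were below 0, with a median of -0.06, and none passed (53.4% and 0% of all genes). In bulk liver RNA fewer cells of a type and less RNA per cell cannot be told apart, and the part of the macrophage markers in the differences above was not tested. WT 1 had macrophage markers almost as low as NML-KO 2, at -0.51, and a median deviation of the interferon-stimulated genes of -0.14. Neutrophil markers were also highest in NML-KO 4, at a mean deviation of 0.59 against -0.16 to 0.05 in the other livers. So were conventional dendritic cell (0.19) and T and NK cell markers (0.12). NML-KO 2 was also lowest for sinusoidal endothelial (-0.22), B cell (-0.15), cholangiocyte (-0.13) and hepatocyte markers (-0.054). Stellate and plasmacytoid dendritic cell markers had both their lowest and highest values in other livers.

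**Figure D5:**
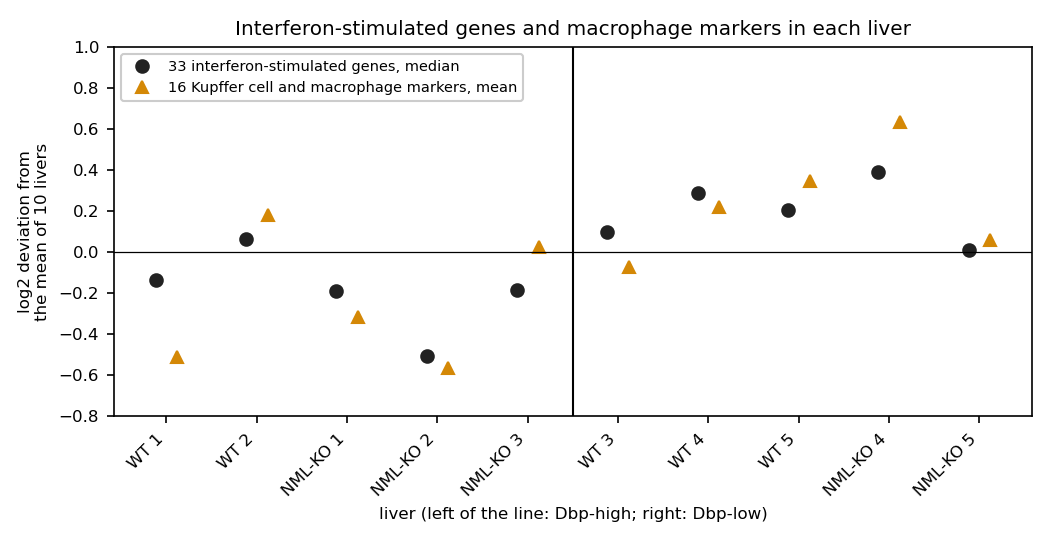
Log2 deviation from the mean of the 10 livers (y axis) for each liver (x axis, Dbp-high left of the line): median of the 33 interferon-stimulated genes (circles) and mean of 16 Kupffer cell and macrophage markers (triangles). NML-KO 2 has the lowest value of both and NML-KO 4 the highest, and WT 1 has low markers with genes at -0.14.

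Single genes that act upstream of the interferon-stimulated genes passed the threshold between the classes, in both directions. Over all genes, 7.99% fell past the threshold between the classes, 4.92% rose past it and 12.9% moved past it in either direction. The calls here and in the next paragraph are few in each group. They were not tested against that share and are given as values only. Of 16 interferon genes measured, with Ifnb1 at 4.55 to 4.80 on arrays whose median gene stood at 6.22, none passed the threshold between the genotypes. Between the classes Ifng and Ifnl2 rose, by 0.25 (SE 0.06) and 0.30 (SE 0.09). Of all genes, 42.5% were below 0 between the classes, and 55.9% were with genes below the median of 6.22 left out, so dim genes mostly read higher in Dbp-high livers. Ifna16, another dim interferon gene, had the smallest p of its group between the genotypes, at 0.18 (SE 0.13). Of 6 receptor genes, Ifnar2, a chain of the type I receptor, fell by 0.55 (SE 0.13) in Dbp-high livers and Ifngr2, a chain of the interferon gamma receptor, rose by 0.49 (SE 0.12) (limma adjusted p = 0.0229 and 0.0238). Ifnar2 read 9.80 and 10.06 in WT 1 and WT 2, 9.67, 9.48 and 10.04 in NML-KO 1 to NML-KO 3, 10.25, 10.17 and 10.49 in WT 3 to WT 5, and 10.62 and 10.31 in NML-KO 4 and NML-KO 5. Its lowest liver was NML-KO 2 and its highest NML-KO 4. Ifnlr1 and Il10rb, chains of the type III receptor, differed by 0.12 (SE 0.07) and -0.13 (SE 0.19) between the genotypes.

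Of 10 JAK-STAT genes and inhibitors measured, Ptpn11 rose between the classes, by 0.34 (SE 0.09), and none passed between the genotypes, where Cish and Ptpn6 had the smallest p at 0.33 (SE 0.33) and -0.10 (SE 0.10). Of 17 genes of nucleic acid sensing upstream of interferon, Ticam1, the adaptor of Tlr3, and Tlr7 fell in Dbp-high livers, by 0.77 (SE 0.10) and 0.39 (SE 0.11) (limma adjusted p = 0.00109 and 0.0469). Between the classes 7.99% of all genes fell past the threshold and 4.92% rose past it. None passed between the genotypes, where Irf3 and Mavs differed by -0.24 (SE 0.13) and 0.12 (SE 0.08).

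A further 58 interferon-stimulated genes outside the list were counted the same way. Between the classes 43 of 58 were below 0, with a median of -0.20, and 11 fell past the threshold with none rising (over all genes, 42.5% were below 0, 7.99% fell and 4.92% rose). The largest were Ly6e, a membrane protein gene, at -1.68 (SE 0.14) and Ifitm2 at -0.83 (SE 0.09), followed by Lgals3bp at -0.78 (SE 0.13) and Ifitm1 at -0.77 (SE 0.14). Ly6e read 10.40 and 10.73 in WT 1 and WT 2, 10.57, 10.09 and 10.75 in NML-KO 1 to NML-KO 3, 12.22, 12.15 and 12.28 in WT 3 to WT 5, and 12.42 and 11.93 in NML-KO 4 and NML-KO 5. Its classes did not overlap, with every Dbp-high liver at 10.75 or below and every Dbp-low liver at 11.93 or above. Between the genotypes 51 of 58 were below 0, with a median of -0.11, none passed the threshold and 4 had an unadjusted p below 0.05 (over all genes, 53.4% were below 0, 0% passed and 2.7% had such a p). Pml, a nuclear body protein gene, differed by -0.36 (SE 0.12) and Tap2, the partner of Tap1, by -0.14 (SE 0.04), each with a limma adjusted p of 0.999, and for Tap2 every NML-KO liver lay below every WT liver (7.33 to 7.43 against 7.46 to 7.60), where the genotypes did not overlap in 0.406% of all genes. Of the 51 of these genes in the promoter table, 21 held the response element core (41.2%).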

How the data were processed

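Total RNA of 10 livers (5 WT, 5 NML-KO) was labelled with biotin after fragmentation and hybridised to Affymetrix whole-transcript arrays, per the labels' protocols. Deposited was a single table of linear intensity values, 28815 probe sets on each array. Background correction, normalization and summary: not given in the sources used here. The submitters' processing notes name build mm8, so RefSeq GRCm38.p6 served for names and promoter sequence only. A background left in the values would shrink differences of dim genes. The analysis used log2 of these values without a filter.

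Of the probe sets, 21780 had 1 gene symbol in the platform table, 1605 had several and 5430 are not named in the platform table used here. The most similar pair of arrays had a root mean square difference of 0.16 in log2, so none was a copy. The tests were limma 3.58.1 (R 4.3.3; lmFit and eBayes) over all 19935 genes, with genotype alone, genotype and Dbp class, or 1 mean for each of the 4 groups, and Benjamini-Hochberg adjustment at 0.05. Exact permutations over livers gave p-values for single genes, with 0.0079 the smallest possible between genotypes. Scripts were tested on simulated data. The genes and lists were chosen with earlier results of these data known. Every liver is given for the genes with the smallest p: 2 in each role between genotypes, 6 between classes and 4 for the difference of effects; other genes are given by counts or fitted differences. Genes outside the list were named by the 2 smallest p of each pathway list between genotypes, the others after their values were seen. Alternatives were quantile normalization, median centring, an offset of 16, leaving out genes below the median of 6.22, the mean of all probe sets, a trended and robust prior, array weights, replicate blocks and leaving out each array.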

Additional observations from a re-analysis of the deposited data

Results flagged for a closer look

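Each of 45 genes, the 33 of the list and 12 others named above, was checked within each genotype. In 3 of these 90 checks 1 liver stood further from the other 4 than Dixon's 95% critical value of 0.71 of the group's range allows. Irf9, the DNA-binding part of the interferon-activated complex, read 7.35 in WT 1 against 7.88 to 8.06 in the other WT livers, a gap of 0.739 of the range. Oas1a read 6.70 in NML-KO 4 against 5.93 to 6.09 in the other NML-KO livers (0.797). Oas3 read 5.43 in NML-KO 3 against 5.83 to 5.89 (0.861). Chance flags about 1 group in 20, so these are given as values only.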

How the results depend on the processing

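Between the Dbp classes, 8 to 13 of the genes were called under quantile normalization, median centring, an offset of 16, dim genes left out, all probe sets averaged, a trended and robust prior and array weights, and 7 to 10 with 1 array left out. Of all genes, 7.06% to 17.3% fell past the threshold in the former fits and 5.29% to 8.1% in the latter. Calls were lost for Ifit3 (array weights), Bst2 (quantile, centring, offset), Ifih1 (quantile, weights) and Stat2 (quantile). With dim genes left out, 28 of the 33 remained and 13 were called, against 17.3% of all genes lower. Called over all genes were 1625 to 2557 with 1 array left out. None of the 33 was called between the genotypes under any of these. Over all genes, called counts with 1 array left out were 0 to 1 between genotypes, 0 to 1 with class in the model, 0 to 23 within Dbp-high, 0 to 24 within Dbp-low and 0 to 13 for the difference of effects. Within Dbp-low, median centring, leaving out dim genes and array weights gave 1 each and a trended and robust prior 3, and with class in the model array weights gave 3. Within Dbp-low, 12 to 23 of the 33 were below 0 with 1 array left out, in the fits that kept at least 2 livers in each group. Signs turned for small differences. Between genotypes, median centring gave -0.00814 for Ifi35 and -0.00917 for Ifih1, and array weights -0.093 for Ifi35, -0.11 for Ifih1 and -0.19 for Ifitm3. With 1 array left out these ran from -0.11 to 0.089 (Ifi35), -0.11 to 0.090 (Ifih1), -0.29 to 0.25 (Ifitm3), -0.27 to 0.015 (Xaf1) and -0.17 to 0.067 (Parp14). Between classes, array weights gave 0.0024 for Psmb8, and 1 array left out gave -0.050 to 0.33 for Gbp3, -0.21 to 0.14 for Tap1 and -0.22 to 0.099 for Psmb8. Without NML-KO 2 and NML-KO 4, chosen after seeing the data, Irf1 was 0.062, Usp18 0.013 and Psmb8 0.081. The cause was not tested. Whether same-numbered livers were pairs could not be settled. Their deviations correlated at 0.44, 0.26, -0.42, 0.35 and 0.54 for numbers 1 to 5. Livers numbered 1, 2, 4 and 5 shared a Dbp class across genotypes and those numbered 3 did not, so pairing and class cannot be told apart here. With the replicate number as a block, 0 genes were called between genotypes, 29 were below 0, the median was -0.205 and 6 had an unadjusted p below 0.05. The share of all genes with such a p was not counted in that fit. The precision is limited by 5 arrays a group and, for dim genes such as Mx1 and Ifit2, by signal near the low end of the arrays.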
